A study of Mus musculus with 6 samples.

Results

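The genes described are 45 genes of the actin cytoskeleton, measured in activated mouse CD4 T cells that carried a retrovirus encoding Blimp-1 or the same retrovirus without an insert. They were chosen by name: the 2 cytoplasmic actins, proteins that bind actin monomers, proteins that cut, cap, branch, elongate, bundle or pull on filaments, proteins that tie filaments to the membrane, and Vim. The list was proposed with differences between the vectors already known for some of its genes. All differences between the vectors for these 45 genes are therefore given as a description. Calls of these genes in fits across all genes are not read as evidence. Of 22599 genes in the deposited table, the 45 were found as follows: 41 by the symbol given there, and 4 only by their RefSeq accession. Those 4 were Tmsb4x and Tmsb10, which share 1 combined symbol in the table, Coro1b, whose symbol there carries an added note, and Myl12a, listed there as MYL9. All 45 reached 1 FPKM in 3 or more libraries, the filter on low values, and so were among the 10856 genes tested. Vim encodes an intermediate filament protein and not an actin binding protein, so it goes against the label and is described last of the 45. It is still part of all counts, medians and shares given for the 45 genes.

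Actin filaments are built from monomers and taken apart again continuously. Profilin and thymosins hold the pool of monomers, the Arp2/3 complex starts new branches where WASP and WAVE proteins activate it, capping proteins stop growth at the filament end, and cofilin and its partners dismantle old filaments. In T cells this machinery shapes the contact with the antigen presenting cell and drives migration, and loss of WASP or coronin 1A in humans causes immunodeficiency. Blimp-1, encoded by Prdm1, is a zinc finger protein best known as a transcriptional repressor in plasma cells and effector T cells.

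RNA was sequenced from 2 groups of 3 libraries, Blimp-1 and empty vector, each numbered 1 to 3 in the labels and described as independent biological replicates. Both groups were wild-type CD4 T cells of the C57/BL6 strain, with no age or sex given, sorted from spleen and lymph node as naive (CD4+ CD44lo CD62L+ CD25neg). Both were stimulated on plates coated with antibodies to CD3 and CD28 (10 ug/ml) under neutral, Th0 conditions, with antibodies blocking IL-4 and IFN-gamma. After 36 h they received MigR1, a retroviral vector with a GFP marker, carrying the Blimp-1 cDNA or nothing, and after 2 days about 0.5 M GFP+ cells were sorted. The growth protocol instead gives 3 days of stimulation, and the Blimp-1 group carries added Blimp-1 cDNA beside the cell's own Prdm1 gene.

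Prdm1 checked the labels: it was at 9.91, 12.8 and 9.45 FPKM in Blimp-1 replicates 1, 2 and 3 and at 0.996, 2.03 and 1.38 FPKM in empty vector replicates 1, 2 and 3. FPKM counts fragments per kilobase of transcript and per unit of sequencing depth, so levels of different genes can be compared. The difference in log2(FPKM + 1), the scale of all differences below, was 2.26 (limma, adjusted p = 0.0564, or adjusted p = 0.00495 with the replicate number as a block), and transcripts of the vector and of the mouse gene cannot be told apart here. The estimated depth was 33.6 to 46.0 M reads in the Blimp-1 libraries and 17.1 to 38.3 M in the empty vector libraries. The fewest estimated reads behind a value of the 45 genes were 563, for Dstn, which gives a counting error of 4.2%. Libraries with the same number deviated together from their group means, so differences are given within the 3 pairs. The pair numbered 3 stood apart: the SD of the difference over all tested genes was 0.323 there, against 0.227 and 0.186 in pairs 1 and 2, and empty vector replicate 3 had the lowest estimated depth. All 6 CD4 T cell markers checked were detected, with a summed level of 1570 to 1742 FPKM in Blimp-1 libraries and 1517 to 1878 FPKM in empty vector libraries. Of the marker lists of other cell types, none of the 5 fibroblast, 5 dendritic cell and 4 platelet genes passed 1 FPKM in 3 libraries, and of the others Cd8b1, Cd79b, Itgam, Klrd1, Klrk1 and Hba-a1 did. The 5 NK cell genes summed to 13.7 to 35.3 FPKM in Blimp-1 libraries and 3.34 to 28.4 FPKM in empty vector libraries, with Ncr1 listed at 0 throughout, and the 3 erythroid genes found summed to 0.503 to 3.13 FPKM in Blimp-1 libraries and 2.10 to 18.9 FPKM in empty vector libraries, highest in replicate 3. Their part in the results was not tested.

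Most of the 45 genes were slightly lower with Blimp-1, and the median difference was more negative among the most abundant ones. The mean difference was negative for 34, against 52.1% of all genes tested, and positive for 11, over a range from -0.53 (Actb) to 0.31 (Wasf2). Within pairs, 23 were lower with Blimp-1 in 3 of 3, against 22.8% of all genes tested, 3 were higher in 3 of 3, against 22.9% of all genes, and 19 were mixed. Their median difference was -0.10, and -0.06, -0.13 and -0.12 in pairs 1, 2 and 3, beside a median of -0.01 over all genes tested. Abundant genes outside the list were also lower more often than all genes. Of the 604 at 100 FPKM or more, 64.2% were lower by mean and 34.8% in 3 of 3 pairs, with a median of -0.04. Of the 28 listed genes at that level, 24 were lower by mean and 17 in 3 of 3 pairs, with a median of -0.13. With quantile normalization 27 of the 45 were lower, the median was -0.03, and Cap1, Coro1b, Actr3, Vasp, Lcp1, Actn4 and Tpm4 changed to small positive differences. For 3 of the 45, Tmsb10, Cotl1 and Tpm3, all Blimp-1 libraries lay below all empty vector libraries, a pattern that 2.34% of all genes had, and none had the reverse, which 2.28% of all genes had. In the fit across all genes (limma with Benjamini-Hochberg adjustment), none of the 45 was called, and the share called among all genes was 0.0%. With the replicate number as a block, none of the 45 was called, against 0.0184% of all genes. At an unadjusted p below 0.05, the fit picked 2 of the 45, against 1.12% of all genes, and 16 of the 45 with the replicate block, against 20.5% of all genes. Since the list was chosen on this contrast, nothing is read from these counts. In sorted cells measured in bulk, a change in the share of cells that make an RNA and a change in the RNA per cell cannot be told apart.

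**Figure D1:**
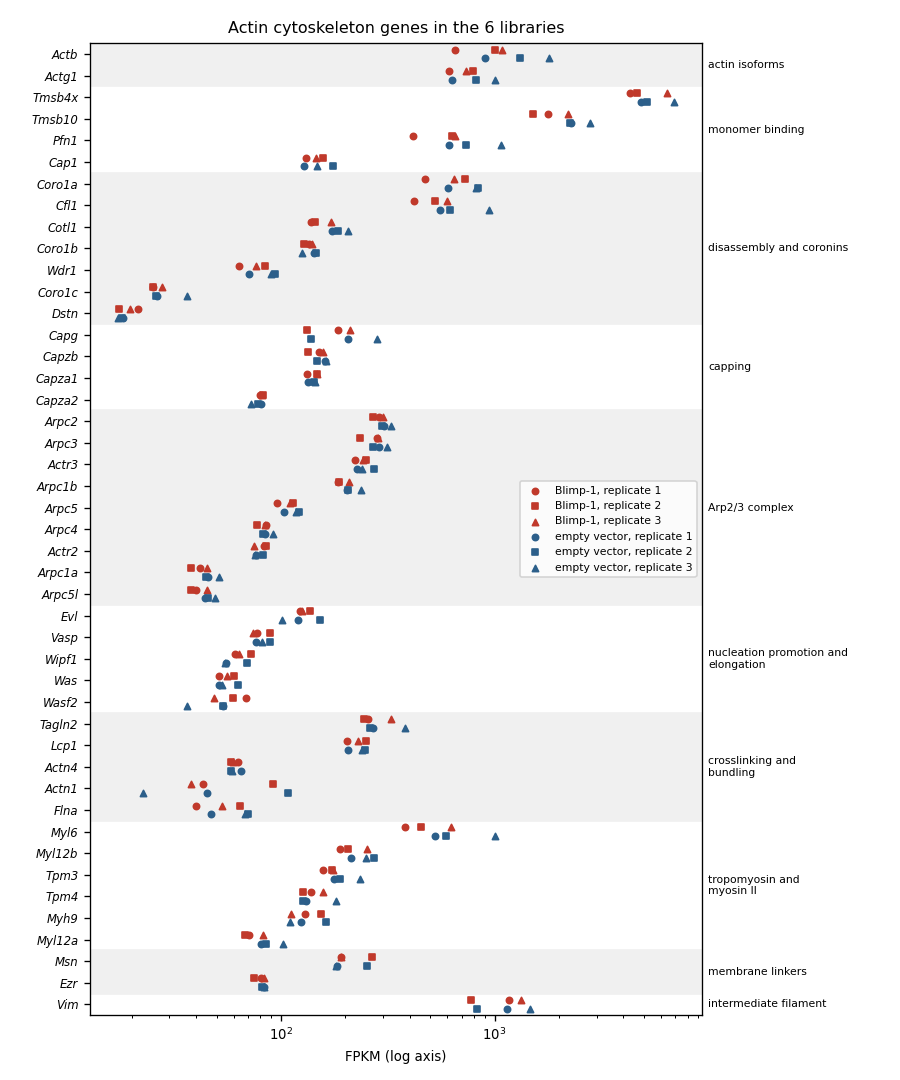
FPKM (log axis) of the 45 genes in the 3 Blimp-1 libraries (red, upper row of each gene) and the 3 empty vector libraries (blue, lower row), ordered by role and by mean level, with the replicate number as the symbol shape. Tmsb4x and Tmsb10 are the highest, Dstn is the lowest, and for Tmsb10, Cotl1 and Tpm3 the red and blue symbols do not overlap.

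The cytoplasmic actins Actb and Actg1, which encode beta- and gamma-actin, were both lower in 3 of 3 pairs. Actb was at 653, 1005 and 1083 FPKM in Blimp-1 replicates 1, 2 and 3 and at 902, 1310 and 1799 FPKM in empty vector replicates 1, 2 and 3. Each Blimp-1 library was below the empty vector library of its number, but the groups overlapped, because Blimp-1 replicates 2 and 3 were above empty vector replicate 1. Actb averaged 914 ± 229 FPKM with Blimp-1 and 1337 ± 449 FPKM with empty vector (SD, n = 3 each), and its difference of -0.53 was the most negative of the 45 (-0.46, -0.38 and -0.73 in pairs 1, 2 and 3). Actg1 was at 614, 788 and 734 FPKM with Blimp-1 and at 634, 818 and 1009 FPKM with empty vector. Its difference of -0.19 came mostly from pair 3 (-0.46), since pairs 1 and 2 each gave -0.05. The ratio of Actb to Actg1 was 1.06, 1.28 and 1.48 in Blimp-1 replicates 1, 2 and 3 and 1.42, 1.60 and 1.78 in empty vector replicates 1, 2 and 3, and so was lower with Blimp-1 in 3 of 3 pairs, with overlapping groups.

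The promoters of Actg1, Myl6 and Arpc4 are shown because they held a CArG box, the site that serum response factor (SRF) binds and through which SRF is known to control many actin genes. They were 3 of the 41 genes matched to a RefSeq promoter window (GRCm38.p6, 250 bases before to 50 bases after the start site), or 7.32%, while 488 of 27025 genes, or 1.81%, held one on either strand. The box is in capitals, on the strand of the gene, and ends 81, 41 and 241 bases before the start sites of Actg1, Myl6 and Arpc4 in that order. The stretches shown are chr11:120348516-120348645 (minus strand) for Actg1, chr10:128493010-128493119 (minus strand) for Myl6 and chr6:113377863-113377932 (plus strand) for Arpc4.
Actg1: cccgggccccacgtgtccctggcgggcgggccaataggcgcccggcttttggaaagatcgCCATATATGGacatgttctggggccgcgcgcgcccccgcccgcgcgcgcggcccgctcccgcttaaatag
Myl6: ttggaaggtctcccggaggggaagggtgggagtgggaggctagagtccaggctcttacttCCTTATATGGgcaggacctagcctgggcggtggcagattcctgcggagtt
Arpc4: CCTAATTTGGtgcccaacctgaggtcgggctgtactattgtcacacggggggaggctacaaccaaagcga
The core of the Blimp-1 site, AGNGAAAG, was present on either strand in 2 of the 41 windows, those of Coro1a and Evl, or 4.88%, against 9.91% of all genes with a window. These are matches of letters in a short window, and binding was not measured. The 4 listed genes without a window, Actb, Arpc5l, Coro1b and Cotl1, were searched for neither the CArG box nor the Blimp-1 core.

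Of the 4 genes for monomer binding proteins, 3 were lower in 3 of 3 pairs, and they include the most abundant RNAs of the 45. Tmsb4x, which encodes thymosin beta 4, the main protein that sequesters actin monomers, was at 4291, 4651 and 6411 FPKM in Blimp-1 replicates 1, 2 and 3 and at 4856, 5152 and 6928 FPKM in empty vector replicates 1, 2 and 3. It ranked 2 among all genes by mean level, and its small difference of -0.15 was similar in the 3 pairs (-0.18, -0.15 and -0.11), while the groups overlapped. The difference was 0.01 with empty vector replicate 3 left out, and -0.05, with pair 3 at 0.02, once a trend on transcript length described below was removed. Tmsb10, the related thymosin beta 10, was at 1782, 1510 and 2199 FPKM with Blimp-1 and at 2279, 2248 and 2785 FPKM with empty vector. All 3 Blimp-1 libraries were below all 3 empty vector libraries, with a difference of -0.42 (-0.35, -0.57 and -0.34 in pairs 1, 2 and 3).

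Pfn1, encoding profilin 1, which loads monomers onto growing ends, was at 416, 630 and 653 FPKM with Blimp-1 and at 609, 733 and 1076 FPKM with empty vector. Its pairs gave -0.55, -0.22 and -0.72, a mean of -0.49, with overlap because empty vector replicate 1 was below Blimp-1 replicates 2 and 3. Cap1, whose protein recycles monomers from cofilin, showed little difference, at 144 ± 13.1 FPKM with Blimp-1 and 150 ± 23.4 FPKM with empty vector (SD, n = 3 each), a difference of -0.05.

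Genes for filament disassembly and coronins, grouped here with Cotl1, were lower by mean in 6 of 7 cases, 5 of them in 3 of 3 pairs. Cfl1, encoding cofilin 1, the main severing protein of lymphocytes, was at 417, 529 and 601 FPKM with Blimp-1 and at 557, 620 and 937 FPKM with empty vector. The difference was -0.43 (-0.42, -0.23 and -0.64 in pairs 1, 2 and 3), and Blimp-1 replicate 3 overlapped the empty vector group. Dstn, the cofilin relative destrin, was the least abundant of the 45, at 21.5, 17.4 and 19.6 FPKM with Blimp-1 and at 18.2, 18.0 and 17.2 FPKM with empty vector. It was the only one of the 7 with a positive difference, 0.12, and pair 2 had the opposite sign. Cfl1 was 19.4, 30.3 and 30.7 times the level of Dstn in Blimp-1 replicates 1, 2 and 3 and 30.7, 34.5 and 54.4 times in empty vector replicates 1, 2 and 3, on the FPKM scale.

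Coro1a, the coronin of blood cells, was at 474, 725 and 648 FPKM with Blimp-1 and at 607, 839 and 821 FPKM with empty vector. Its pairs gave similar differences, -0.36, -0.21 and -0.34, with a mean of -0.30, although the groups overlapped. Cotl1, encoding coactosin-like protein, a small filament binding protein, was at 139, 145 and 171 FPKM with Blimp-1 and at 174, 185 and 207 FPKM with empty vector. The groups did not overlap, and the pairs ranged from -0.35 to -0.27 around a mean of -0.32. Wdr1, which helps cofilin take filaments apart, differed by -0.18, Coro1c by -0.16 and Coro1b by -0.04, and Coro1b was higher with Blimp-1 in pair 3.

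Capping proteins, which block the fast growing end of filaments, differed little. Capg, a gelsolin relative, was at 186, 133 and 211 FPKM with Blimp-1 and at 206, 138 and 282 FPKM with empty vector, with pairs of -0.15, -0.06 and -0.42 and a mean of -0.21, which was 0.04 with empty vector replicate 3 left out. In both groups replicate 2 was the lowest, and the spread between replicate numbers was larger than the difference between the vectors. Capza2, an alpha subunit of capping protein, was at 80.0, 82.5 and 81.4 FPKM with Blimp-1 and at 80.6, 78.2 and 72.6 FPKM with empty vector, a difference of 0.08. The other alpha subunit Capza1 differed by 0.02, and the beta subunit Capzb was lower in 3 of 3 pairs by a mean of -0.09.

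The Arp2/3 complex showed small differences: 8 of its 9 genes were lower by mean, 6 in 3 of 3 pairs, with a median of -0.11 and none beyond -0.17. Arpc5l was the least abundant, at 41.0 ± 3.70 FPKM with Blimp-1 and 46.2 ± 2.46 FPKM with empty vector (SD, n = 3 each). Arpc2, a core subunit and the most abundant, was at 287, 269 and 301 FPKM with Blimp-1 and at 302, 296 and 326 FPKM with empty vector, a difference of -0.11. Arpc1a, which alternates with Arpc1b in the complex, had the most negative difference, -0.17, at 41.7, 37.7 and 45.2 FPKM with Blimp-1 and at 45.4, 44.5 and 51.1 FPKM with empty vector. The groups overlapped for Arpc2 and for Arpc1a, in each case only through Blimp-1 replicate 3.

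Actr2, which encodes the actin-related subunit Arp2, was the exception by sign, at 83.3, 84.9 and 74.9 FPKM with Blimp-1 and at 76.1, 82.5 and 75.3 FPKM with empty vector, a difference of 0.05. The other actin-related subunit gene, Actr3, differed by -0.05 with its 3 transcripts summed and by -0.33 with the most abundant transcript alone. That transcript made up 37.3% of the Actr3 FPKM in Blimp-1 replicate 1 and 81.0% in empty vector replicate 3. The ratio of Arpc1a to Arpc1b averaged 0.215 ± 0.0130 with Blimp-1 and 0.218 ± 0.00324 with empty vector (SD, n = 3 each), and was lower with Blimp-1 in 1 of 3 pairs. The ratio of Arpc5l to Arpc5 was 0.417, 0.333 and 0.409 in Blimp-1 replicates 1, 2 and 3 and 0.427, 0.374 and 0.416 in empty vector replicates 1, 2 and 3. It was lower with Blimp-1 in 3 of 3 pairs, with overlapping groups.

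Activators of Arp2/3 and elongation factors were the one role with mostly positive differences, 4 of 5, with a median of 0.06. Wasf2, encoding WAVE2, which drives branching at the leading edge and the contact zone, was at 68.8, 59.5 and 48.6 FPKM in Blimp-1 replicates 1, 2 and 3 and at 53.6, 53.6 and 36.3 FPKM in empty vector replicates 1, 2 and 3. It had the most positive difference of the 45, 0.31 (0.35, 0.15 and 0.41 in pairs 1, 2 and 3), with Blimp-1 replicate 3 inside the range of the empty vector group. Wipf1, whose protein stabilises WASP, was also higher in 3 of 3 pairs (0.14), while Was itself, at 56.0 ± 4.55 FPKM with Blimp-1 and 55.8 ± 6.52 FPKM with empty vector (SD, n = 3 each), differed by 0.01.

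Evl and Vasp, of the Ena/VASP family that elongates filaments, showed no common direction. Evl was at 123, 136 and 126 FPKM with Blimp-1 and at 121, 152 and 101 FPKM with empty vector, a difference of 0.06 made of pairs with opposite signs. Vasp was at 77.3, 88.8 and 74.2 FPKM with Blimp-1 and at 76.1, 88.4 and 81.5 FPKM with empty vector, a difference of -0.04.

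Among crosslinking and bundling genes, Flna and Tagln2 were lower in 3 of 3 pairs. Flna, encoding the crosslinker filamin A, was at 40.0, 64.5 and 53.1 FPKM with Blimp-1 and at 47.1, 69.8 and 68.2 FPKM with empty vector, a difference of -0.23 with overlapping groups. Tagln2, encoding transgelin 2, was the most abundant of this role, at 255, 246 and 327 FPKM with Blimp-1 and at 271, 260 and 382 FPKM with empty vector, a difference of -0.13, which was 0.04 with empty vector replicate 3 left out. Lcp1, the plastin of blood cells, and Actn4 differed by -0.02 and -0.01.

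Actn1, encoding alpha-actinin 1, varied more between libraries than any other of the 45. It was at 43.2, 91.5 and 37.9 FPKM in Blimp-1 replicates 1, 2 and 3 and at 45.1, 108 and 22.5 FPKM in empty vector replicates 1, 2 and 3, so the highest library was 4.79 times the lowest. Replicate 2 was the highest in both groups, and the pairs differed by -0.06, -0.24 and 0.73. Its mean difference of 0.14 came from pair 3 alone and was -0.15 without that pair.

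Of the tropomyosin and myosin II genes, 5 of 6 were lower by mean, and Myl6 had the most negative difference. It encodes the essential light chain of non-muscle myosin II and was at 381, 451 and 624 FPKM with Blimp-1 and at 526, 593 and 999 FPKM with empty vector. Its difference was -0.51 (-0.46, -0.40 and -0.68 in pairs 1, 2 and 3), and Blimp-1 replicate 3 overlapped the empty vector group. The regulatory light chains Myl12a and Myl12b differed by -0.27 and -0.19, and only Myl12a was lower in 3 of 3 pairs.

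Myh9, the heavy chain that these light chains bind, was at 130, 154 and 112 FPKM with Blimp-1 and at 123, 162 and 110 FPKM with empty vector. Its difference was 0.01, with replicate 2 the highest in both groups. Tpm3, a tropomyosin that lies along the filament, was at 157, 173 and 176 FPKM with Blimp-1 and at 176, 190 and 235 FPKM with empty vector, with no overlap and a difference of -0.24. The gap between the groups was narrow for Tpm3: Blimp-1 replicate 3 and empty vector replicate 1 were almost equal. Tpm4 differed by -0.04, with pairs of opposite signs.

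Ezrin and moesin, which tie filaments to the plasma membrane, did not share a direction. Msn, the more abundant, was at 192, 267 and 191 FPKM with Blimp-1 and at 182, 253 and 181 FPKM with empty vector. All 3 pairs gave about the same positive difference (0.07, 0.08 and 0.07), which is smaller than the spread between replicate numbers within a group. Leaving out 1 library, which unbalances the pairs, turned the sign: the difference was -0.09 without Blimp-1 replicate 2, -0.0028 without empty vector replicate 1 and -0.0062 without empty vector replicate 3. Ezr was at 80.3, 74.4 and 83.3 FPKM with Blimp-1 and at 82.9, 81.7 and 83.0 FPKM with empty vector, a difference of -0.06. Vim, the intermediate filament gene, was at 1164, 776 and 1330 FPKM with Blimp-1 and at 1140, 827 and 1457 FPKM with empty vector. It varied with the replicate number in both groups, lowest in replicate 2 and highest in replicate 3, and its difference was -0.07.

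**Figure D2:**
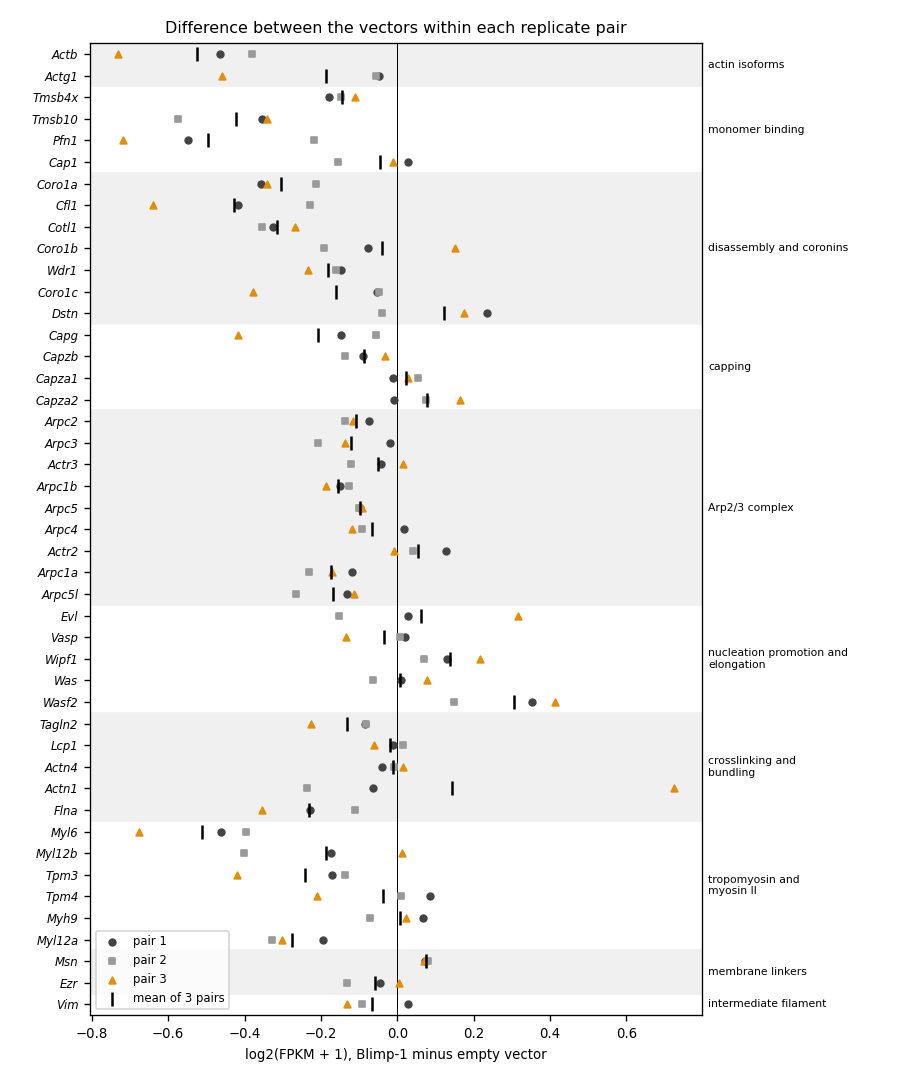
Difference in log2(FPKM + 1), Blimp-1 minus empty vector, of each of the 45 genes within the replicate pairs 1, 2 and 3 (circle, square, triangle) and their mean (bar), ordered by role. Actb, Pfn1, Cfl1 and Myl6 lie furthest to the left with pair 3 the most negative, Wasf2 has the most positive mean, and pair 3 of Actn1 stands apart at 0.73.

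Split at a mean of 400 FPKM, the more abundant of the 45 genes had the more negative median difference. All 9 of the genes at a mean of 400 FPKM or more were lower by mean, 8 of them in 3 of 3 pairs, with a median of -0.42, and 25 of the 36 below that level were lower, with a median of -0.05. These 9 were Tmsb4x, Tmsb10, Actb, Vim, Pfn1, Actg1, Coro1a, Cfl1 and Myl6. Single genes did not follow the order of level: Tmsb4x, at a mean of 5382 FPKM, differed by -0.15 and Vim, at 1116 FPKM, by -0.07. Cotl1, at 170 FPKM, differed by -0.32. Tmsb4x, Tmsb10, Pfn1 and Myl6 also have transcripts under 1 kb, and the parts of level and length were not tested. Of the 140 genes outside the list at 400 FPKM or more, 83 were lower by mean and their median was -0.02. The 45 genes together took up 2.84%, 3.28% and 3.58% of all FPKM in Blimp-1 replicates 1, 2 and 3 and 3.20%, 3.67% and 4.15% in empty vector replicates 1, 2 and 3. The share was lower with Blimp-1 in each pair, with differences of -0.363, -0.395 and -0.567 percentage points, but the groups overlapped (3.23 ± 0.376% with Blimp-1 and 3.67 ± 0.477% with empty vector, SD, n = 3 each). Tmsb4x and Tmsb10 alone made up 42.2% of the FPKM of the 45 genes, and the top 10 made up 75.3%.

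**Figure D3:**
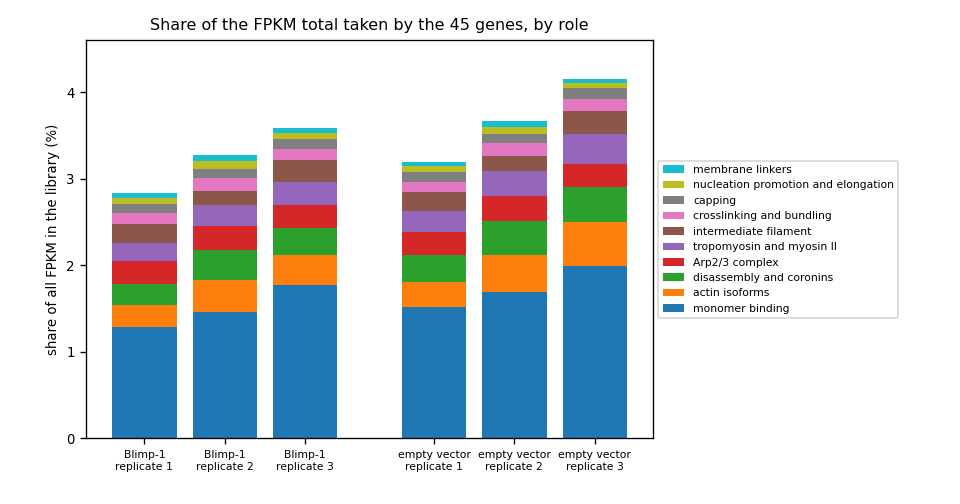
Share of all FPKM (%) taken by the 45 genes in each Blimp-1 library (left) and each empty vector library (right), stacked by role. The total is 2.84% to 3.58% in the Blimp-1 libraries and 3.20% to 4.15% in the empty vector libraries, and the monomer binding genes make up the largest part of it in all 6.

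Pair 3, which stood apart, did not set the direction for most genes but did set the size for some. Empty vector replicate 3 was the highest of the 6 libraries for 22 of the 45 genes, and Blimp-1 replicate 1 was the lowest for 17. Over all 10856 genes tested these counts were 3161 and 2416. Among the 604 genes at 100 FPKM or more outside the list they were 269 and 98. Without pair 3 the median was -0.10 and 35 of 45 were lower, and the sign changed for Was, Vasp, Evl, Lcp1, Actn1, Tpm4 and Myh9. Without it the differences were -0.42 for Actb, -0.38 for Pfn1, -0.32 for Cfl1, -0.43 for Myl6, -0.46 for Tmsb10 and -0.28 for Coro1a. The differences of Actg1 (-0.05), Coro1c (-0.05), Capg (-0.10) and Tpm3 (-0.15) were among those smaller without it by more than 1.5 times. In a blocked limma fit on pairs 1 and 2 alone, 10 of the 45 were called lower (Actb, Cfl1, Coro1a, Cotl1, Myl12a, Myl12b, Myl6, Pfn1, Tmsb10 and Tmsb4x), against 6.25% of all genes, and 1 was called higher (Wasf2), against 5.04% of all genes. On pairs 1 and 3 alone, Actb and Pfn1 were called, against 0.249% of all genes called in either direction. Each of these fits rests on 2 pairs, and the first left out the pair with the largest SD of the difference over all tested genes (0.323). Since the list was chosen on this contrast, nothing is read from these calls.

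Differences also moved with transcript length across the whole table. Over all genes tested the median difference was -0.10 for transcripts under 1 kb, -0.06 for 1 to 2 kb, -0.02 for 2 to 3 kb, 0.02 for 3 to 5 kb and 0.09 for 5 kb or more, and the medians stood in the same order in each of the 3 pairs. The 45 genes followed the same order, with medians of -0.42 (5 genes), -0.17 (15), -0.05 (11), -0.01 (11) and 0.01 (3). Tmsb4x, Tmsb10, Pfn1, Myl6 and Arpc3 are the 5 short ones. With the trend on length removed from each library, an alternative chosen after the data were seen, the median of the 45 was -0.05, with 34 lower by mean and 22 lower in 3 of 3 pairs. The differences were then -0.48 for Actb, -0.41 for Pfn1, -0.40 for Cfl1, -0.41 for Myl6, -0.31 for Tmsb10 and -0.05 for Tmsb4x, so that of Tmsb4x was smaller by more than 1.5 times, and so were those of Arpc2, Arpc3, Arpc4, Arpc5, Arpc5l and Actr3, among others. Not all differences became smaller: that of Flna was -0.34 in place of -0.23. Myh9 changed from 0.01 to -0.09 and was lower in 3 of 3 pairs, Coro1b changed from -0.04 to 0.01, and Arpc1a was lower without overlap. The part of length in these differences was not tested.

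**Figure D4:**
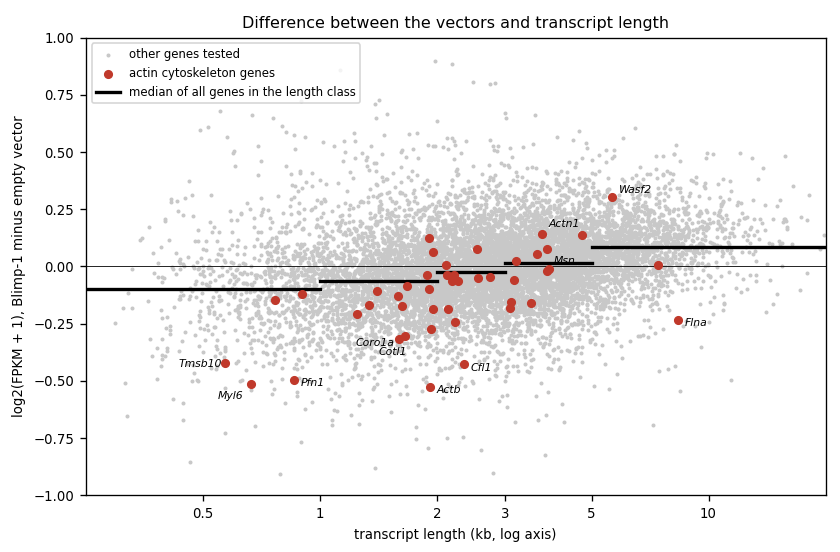
Difference in log2(FPKM + 1), Blimp-1 minus empty vector, against transcript length (kb, log axis) for the 45 genes (red) and the other genes tested (grey), with the median of all genes in each of 5 length classes (black). The medians go up from -0.10 under 1 kb to 0.09 at 5 kb or more, and Actb, Pfn1, Cfl1, Myl6 and Tmsb10 lie well below them; 12 genes lie beyond the vertical axis and 15 beyond the horizontal one.

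Reads of several of the 45 genes may have been split with other genes that share sequence with them, which makes their level uncertain. Words of 50 bases, the read length, were compared between transcripts in GENCODE M21: 17 genes shared none with another gene, among them Pfn1, Tmsb4x, Coro1a, Cotl1 and Wasf2, and 18 shared 10% or more, among them Actb (14.2%) and Cfl1 (23.0%). Most of the words of Capza1 (77.5%), Tpm3 (66.8%), Tmsb10 (63.5%), Actg1 (56.7%), Myl6 (53.3%) and Actr3 (50.0%) occur in another gene, for Tpm3 mostly in Tpm3-rs7. Between Myl12a and Myl12b the overlap was 29.2% of the words of Myl12a. The gene sharing most words was Snx32 for Cfl1 (16.2%), Pdap1 for Arpc1b (28.9%) and Ptprcap for Coro1b (20.8%). The counts above are thus not limited to copies of the same gene.

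Other cytoskeleton genes outside the list, mostly of the actin machinery and including tubulins, showed no common direction. Of 124 such genes, 114 passed the filter, and limma called none after adjustment over all genes, without or with the replicate block, with 2 at an unadjusted p below 0.05 without the block, against 1.12% of all genes, and 29 with it, against 20.5% of all genes. By mean, 51 were lower and 63 higher, with a median of 0.03. Twf2, encoding twinfilin 2, which binds monomers and filament ends, had the most negative difference among those at 5 FPKM or more without overlap, -0.34. Twf2 was at 50.9, 60.4 and 61.1 FPKM with Blimp-1 and at 65.0, 73.4 and 80.7 FPKM with empty vector (limma, adjusted p = 0.998, or adjusted p = 0.141 with the replicate block). Gsn, the severing protein gelsolin (-0.22), and Coro7 (-0.16) were also lower without overlap. The formin Inf2 (0.14) and the kinase Slk (0.13) were higher without overlap.

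By role, the kinases and phosphatases that act on actin regulators were higher by mean in 10 of 11 cases, with a median of 0.14, among them Rock1 (0.22), Rock2 (0.23), Pak2 (0.29) and the cofilin phosphatase Ssh1 (0.34). The formins, WAVE complex and other nucleation factors had a median of 0.08 and 12 of 17 higher. Srf and its cofactors were lower in 3 and higher in 3 of 6 cases, with a median of 0.05, from Mrtfa (-0.19) and Srf (-0.08) to Elk4 (0.19). The tubulins, of the other large filament system, had a median of -0.28, with Tuba1a (-0.33), Tuba1b (-0.28), Tuba1c (-0.29), Tuba4a (-0.48) and Tubb4b (-0.37) lower and Tubb2b (0.21) and Tubb6 (0.23) higher in 3 of 3 pairs. Differences of the genes in these lists also moved with transcript length. Their medians were -0.03 under 1 kb (3 genes), -0.21 for 1 to 2 kb (15) and -0.05 for 2 to 3 kb (21). For 3 to 5 kb the median was 0.04 (46 genes), and for 5 kb or more it was 0.10 (29). The part of length in the differences between these lists was not tested. In the limma fits on all 3 pairs, without or with the block, none of the genes named in these lists was called after adjustment. In the blocked fit on pairs 1 and 2 alone, Twf2, Tuba1a, Tuba1b, Tuba1c, Tuba4a and Tubb4b were called lower, against 6.25% of all genes, and Ssh1, Pak2 and Tubb6 were called higher, against 5.04% of all genes. These genes were named from their values in the same libraries, so nothing is read from these calls either.

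**Figure D5:**
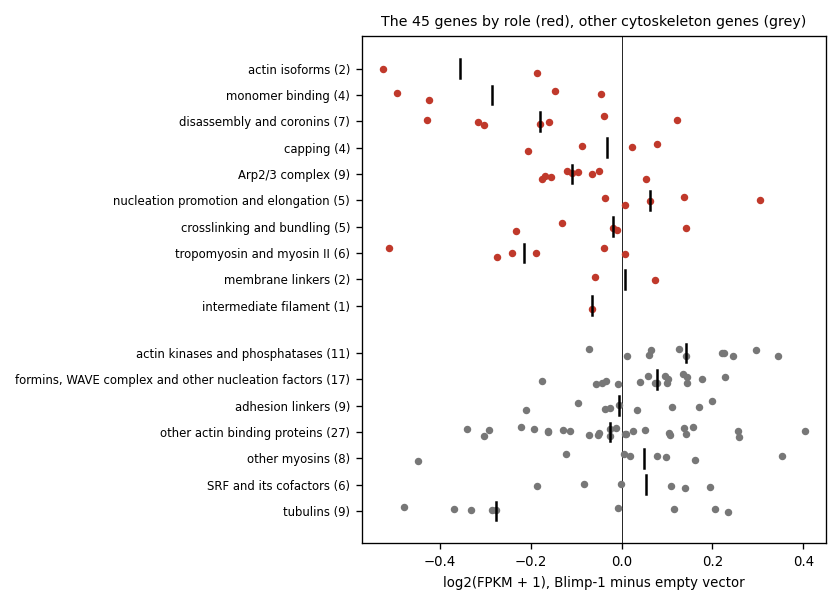
Difference in log2(FPKM + 1), Blimp-1 minus empty vector, for each of the 45 genes by role (red) and for 87 other cytoskeleton genes in 7 lists (grey), with the number of genes in brackets and the median as a bar. The lowest medians are those of the actin isoforms (-0.36), monomer binding genes (-0.28) and tubulins (-0.28), and the highest is that of the kinases and phosphatases (0.14).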

How the data were processed

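The authors deposited 1 table of expression values for 29868 transcripts in 6 libraries, with no header naming the unit. Per the submitters' processing notes, CASAVA 1.8.2, Cufflinks 2.2, Partek 6.6 and the build mm9 were used, with no role or order. The deposited values were read as FPKM, the unit Cufflinks writes. For the aligner, annotation, filters and strand setting, nothing is given in the sources used here. FPKM shows shares of the RNA pool, not amounts per cell. Per the labels' protocols, 2 ug of total RNA was made into TruSeq libraries and read for 50 cycles, single read.

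Transcript values were summed per gene after 29488 transcripts were named by accession from RefSeq (GRCm38.p6) or GENCODE M21 tables, 254 by symbol and 58 by synonym, while 57 kept the deposited name and 11 had none. The reference gave names, lengths and promoter sequences only, since its build differs from mm9. Depth was estimated from the lowest values of genes with 1 transcript, taken as 1 read. A gene was tested if 3 or more libraries had 1 FPKM. The test was limma 3.58.1 (R 4.3.3) on log2(FPKM + 1). Its model held only the vector and a trend of variance on mean level, and p-values were adjusted by Benjamini-Hochberg, with calls at 0.05. The pseudocount of 1 understates changes of low genes. The test was tried on simulated data first. The p-values set the difference between the vectors against the spread between these libraries, with the variance of each gene moderated over all genes. Without the block, that spread includes the variation between replicate numbers.

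The members and lists were chosen with earlier results of these data known. Values per library are given for the most abundant gene of each role, those with the largest difference in each direction and those without overlap, plus Actg1, which was added to compare the actins. Outside the list, up to 6 genes at 5 FPKM or more without overlap are named, and 2 of the 9 other lists with 1 such gene are not reported here on their own. Genes named for the lists of kinases, SRF cofactors and tubulins were chosen after their values were seen. The replicate numbers were taken as pairs because deviations from the group means correlated between same-numbered libraries (0.798, 0.809 and 0.703 over genes). All other combinations correlated negatively, which adds little: deviations from a mean of 3 libraries cancel out, so positive pairs push the rest down. Alternatives were other pseudocounts, filters, scalings, transcript sums and names, the replicate block, no trend, each library or pair left out, and the length trend removed.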

Additional observations from a re-analysis of the deposited data

How the results depend on the processing

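With the replicate number as a block, limma called 1 gene higher and 1 lower and none of the 45, as it did with the length trend also removed (1 and 1), which was chosen after the data were seen. The block without pair 1 gave 1 higher and 2 lower, without pair 2 it gave 7 higher and 20 lower (2 of the 45), and without pair 3 it gave 547 higher and 678 lower (11 of the 45 and 19 of the other cytoskeleton genes). Without the block, 1 gene was called higher with median-ratio scaling or with the length trend removed. Leaving out single libraries gave 0 to 1 higher and 0 lower. The median difference of the 45 was -0.0288 with quantile normalization and -0.0504 with the length trend removed, with or without the block, and -0.147 to -0.066 with single libraries left out. That of the other cytoskeleton genes was -0.0130 to 0.045 with single libraries left out. With the deposited symbols alone, 1 of the 45 was lower without overlap, because Tmsb10 could not be found by its symbol and 1 transcript of Tpm3 was not counted. The cause of the other changes was not tested. Over 21 alternatives, 1012 of 1067 values of single genes kept their sign and 55 changed it, in 17 genes, and 20 of the 23 genes lower in 3 of 3 pairs never changed it. Among the 21 are the other filters, the fit without the variance trend and the block alone on all 3 pairs. These cannot change a difference, so the count of kept signs overstates the stability. With empty vector replicate 3 left out, which leaves pair 3 unbalanced, 11 of the 45 changed sign, among them Tmsb4x, Capg and Tagln2, and the share of all FPKM differed by -0.202 percentage points in place of -0.441. Depth limits the low genes: empty vector replicates 1 and 3 had the fewest estimated reads.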
